A study of Rattus norvegicus with 16 samples.

Results

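The interleukin receptors, the Janus kinases (JAK), the signal transducers STAT and their inhibitors of the SOCS family were followed in rat brain and blood after traumatic brain injury (TBI). The 53 genes were taken by symbol: every interleukin receptor symbol of the form Il, number, r and any ending, except those of the IL-1 receptors proper, the IL-1 antagonist and Il7r, every symbol of a numbered JAK or SOCS gene, and Tyk2, Stat3, Stat4, Stat5a, Stat5b, Stat6, Il6st, Cish and Csf2rb. They are 53 of the 16638 gene symbols in the deposited tables. The CA1 table held all 53 and the white blood cell (WBC) table held 52, because Jak3 stood there only in a row shared with Insl3. Csf2ra, the GM-CSF receptor alpha chain, stood in both tables only in a row shared with another locus and was not counted. The spelling rule also took in Il36rn, which encodes a secreted antagonist and not a receptor. Il4ra and Il28ra are the table's older symbols for Il4r and Ifnlr1.

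Male Sprague-Dawley rats, received either a fluid percussion injury or sham surgery, and were killed 1 week later after a test of learning. The labels name no age, genotype or transgene. Poly-A RNA was sequenced from 4 sham and 4 TBI samples of CA1, a field of the hippocampus that relays its output, and from 4 sham and 4 TBI samples of WBC isolated from blood. All 16 libraries thus come from operated animals, and there is no group without surgery. Neuronal markers set the CA1 libraries apart from blood, with a pyramidal neuron list sum of 2300 to 3182 FPKM in CA1 against 5.28 to 13.0 in WBC. This contrast does not tell CA1 from other fields of the hippocampus, and Fibcd1 of that list was listed at 0. The WBC libraries held T cell, B cell, natural killer, neutrophil and monocyte markers, and also erythroid and platelet markers at high levels. The tables give no fragment counts, so depth and counting error are unknown. The labels number the samples but tie no number to a rat, so a p-value here reflects the spread among these samples, which may be technical.

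Most interleukin receptors have no enzyme activity of their own. Binding of the cytokine brings receptor chains together, the JAKs bound to their tails phosphorylate them and the STATs, and STAT dimers enter the nucleus and switch on target genes, among them the SOCS genes and Cish, whose products shut the receptors off. Receptors for IL-1 and IL-18 relatives and for IL-17 use other adaptors and no JAK. In blood, this pathway carries growth and differentiation signals of lymphocytes and myeloid cells, and in brain it is best known in glia responding to IL-6 relatives.

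STAT dimers prefer a palindrome with the letters TTCNNNGAA, which reads alike on both strands, so the 250 bases before each gene's start were searched for it in the RefSeq promoter table of the rat build GRCr8. Of the 53 genes, 39 had an entry there and 4 of these 39 (10.3%) held the motif in any of their windows. Of all 33469 windows of the same length, 2566 held it (7.67%). The first share counts genes and the second counts windows, and a gene with several starts has several windows. The 4 windows are printed 5′ to 3′ on the gene's strand, with matches in capitals, because 2 of them belong to the feedback inhibitors Cish and Socs1, whose levels are described further on. They lie at chr8:116850719-116850968 (plus strand) for Cish, chr10:5389324-5389573 (plus) for Socs1, chr4:97844938-97845187 (minus) for Il12rb2, which also has a second start without a match, and chr9:50223241-50223490 (plus) for Il18r1.
Cish: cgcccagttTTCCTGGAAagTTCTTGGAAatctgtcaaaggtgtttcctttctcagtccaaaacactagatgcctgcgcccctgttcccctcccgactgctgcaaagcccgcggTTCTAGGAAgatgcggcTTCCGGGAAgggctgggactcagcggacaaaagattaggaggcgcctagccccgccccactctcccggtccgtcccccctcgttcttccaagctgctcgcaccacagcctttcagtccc
Socs1: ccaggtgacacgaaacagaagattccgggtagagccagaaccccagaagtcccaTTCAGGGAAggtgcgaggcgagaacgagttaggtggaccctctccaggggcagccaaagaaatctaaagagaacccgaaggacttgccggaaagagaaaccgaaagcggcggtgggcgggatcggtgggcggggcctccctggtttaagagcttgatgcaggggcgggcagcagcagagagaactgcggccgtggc
Il12rb2: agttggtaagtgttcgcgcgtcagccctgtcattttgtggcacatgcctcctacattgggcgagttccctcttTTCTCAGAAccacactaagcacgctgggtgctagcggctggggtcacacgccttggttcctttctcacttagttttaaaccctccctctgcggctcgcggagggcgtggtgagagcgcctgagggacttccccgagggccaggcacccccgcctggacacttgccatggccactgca
Il18r1: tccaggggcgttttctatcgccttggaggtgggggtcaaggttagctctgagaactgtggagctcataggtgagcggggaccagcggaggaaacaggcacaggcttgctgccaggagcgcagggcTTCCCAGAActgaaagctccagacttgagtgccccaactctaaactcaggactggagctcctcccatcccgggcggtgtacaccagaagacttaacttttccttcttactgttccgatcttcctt
Cish held 4 matches, TTCCTGGAA, TTCTTGGAA, TTCTAGGAA and TTCCGGGAA, which begin 241, 230, 136 and 119 bases before the start. No window held more than 4, and only 7 of all 33469 (0.0209%) held 3 or more. Socs1 had TTCAGGGAA, Il12rb2 TTCTCAGAA and Il18r1 TTCCCAGAA, once each. The longer form with 4 bases between TTC and GAA was in the windows of Il1rl1 and Il20rb (5.13% of the 39, beside 6.25% of all windows). A match is a description of letters and not a measured binding site, and the windows of Socs3, Stat6 and Il3ra held neither form.

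Expression was given as FPKM, fragments per length of transcript scaled to the size of the library, which allows levels to be compared between genes. In CA1 the kinase Jak1 led with a mean of 43.97 FPKM over 8 libraries, followed by the inhibitor Socs5 at 24.9, the IL-1 receptor accessory protein Il1rap at 19.5, the shared IL-6 family chain Il6st (gp130) at 16.2, Il17rb at 12.7, Il11ra1 at 11.4 and Stat3 at 10.7. The libraries of Jak1 (38.3 to 51.6) lay above those of every other gene of the group. Neighbours below it were not set apart by their spread: the highest library of Il1rap equalled the lowest of Socs5 (22.3), and the ranges of Il1rap (15.02 to 22.3) and Il6st (14.3 to 18.2) overlapped. In WBC the order was another one, led by Il2rg, the common gamma chain of the IL-2, IL-4, IL-7, IL-9, IL-15 and IL-21 receptors, at 184 FPKM, then Jak1 at 113, Il21r at 102, Il4ra at 89.5, Il17ra at 86.4, Stat6 at 60.4, Il2rb at 39.0, Il6r at 32.0 and Jak2 at 28.7. The ranges of Jak1 and Il21r in WBC overlap, as do those of Il21r, Il4ra and Il17ra.

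**Figure D1:**
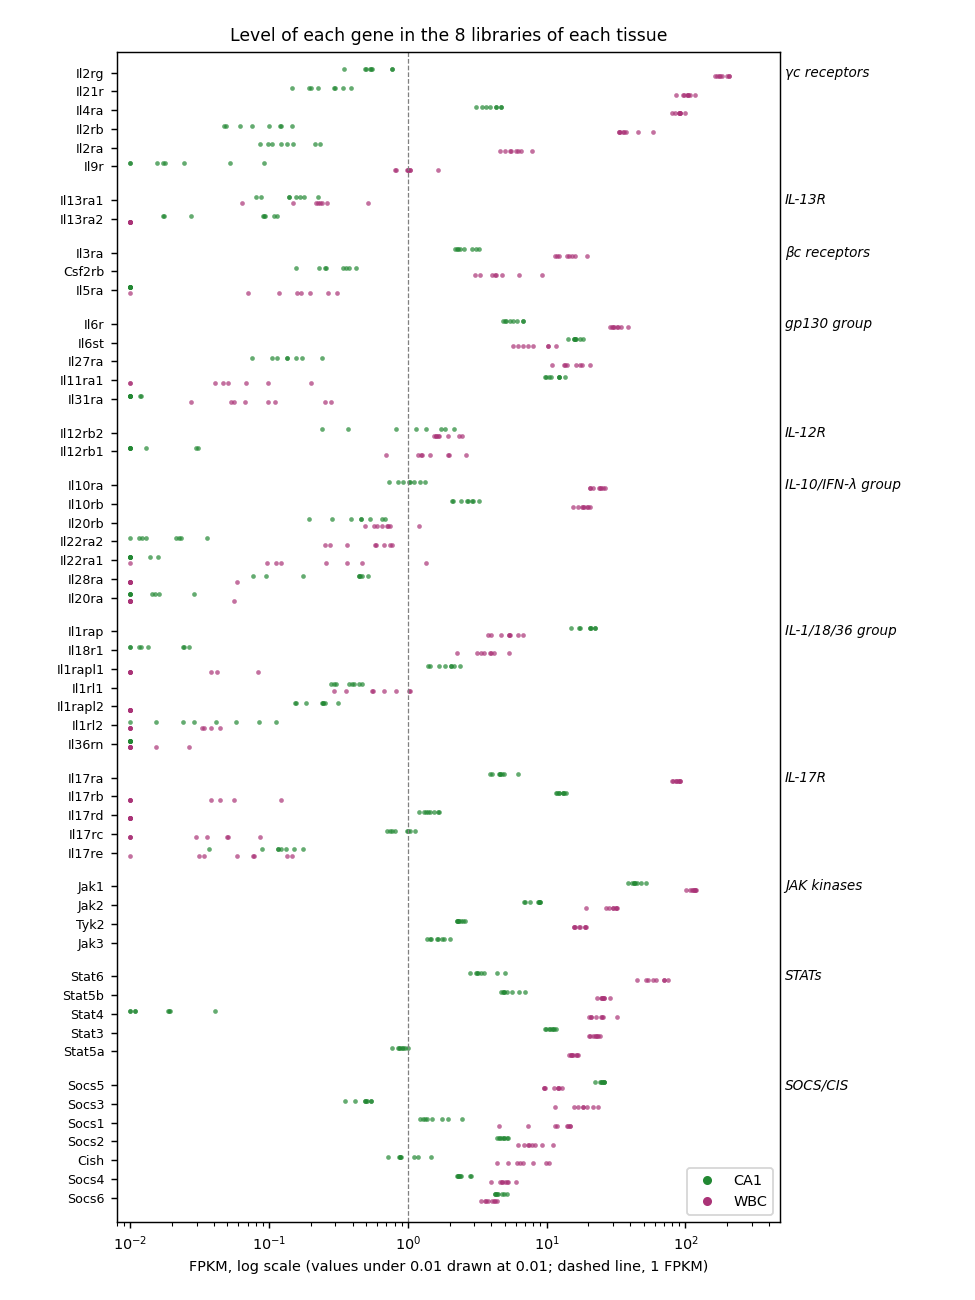
FPKM of every gene of the group on a log axis, grouped by role, with 1 point per library (8 CA1 libraries in green, 8 WBC libraries in purple); values under 0.01 are drawn at 0.01 and the dashed line is 1 FPKM. Il2rg, Il21r and Il2rb sit far to the right in WBC and below 1 FPKM in CA1, while Il17rb and Il11ra1 do the opposite.

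Of the 52 genes in both tables, 37 had the higher mean in WBC and 15 in CA1, as the plot of levels by role shows. A mean of at least 1 FPKM was reached in both tissues by 20 genes, in CA1 alone by 4, in WBC alone by 13 and in neither by 15. These levels are set side by side without a test, since the tables were normalized separately. Among the receptor chains, Il17rb was at 12.7 FPKM in CA1 and 0.0323 in WBC, and Il11ra1, the IL-11 receptor, at 11.4 and 0.0632. In the other direction the lymphocyte chains Il2rg, Il21r and Il2rb had 0.563, 0.260 and 0.0899 FPKM in CA1. Defining markers of blood lymphocytes were low in CA1, where the summed level of the natural killer list was 0.0652 to 0.472 FPKM and that of the T cell list 3.21 to 7.30, with Cd5 listed at 0. In bulk samples, fewer cells of a type and less RNA per cell cannot be told apart.

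All 5 STAT genes had means of at least 15.6 FPKM in WBC, whereas in CA1 Stat3 (10.7), Stat5b (5.44) and Stat6 (3.56) passed 1 FPKM, Stat5a was at 0.892 and Stat4, the transducer of IL-12 signals, at 0.0161. Of the JAK genes, Tyk2 and Jak3 were the lowest in CA1 (2.36 and 1.64). Listed at 0 in every library were Il5ra and Il36rn in CA1 and Il13ra2, Il17rd and Il1rapl2 in WBC. Il17rd and Il1rapl1, an accessory-like protein of neurons, had 1.45 and 1.86 FPKM in CA1, and Il1rapl1 had 0.0205 in WBC. By RefSeq gene order, 16 of the 53 lie next to another gene of the group, in 9 pairs. Neighbours shared their levels in some pairs, as with Il4ra and Il21r in WBC (89.5 and 102 FPKM), and not in others, as with Il6st and Il31ra in CA1 (16.2 and 0.00296).

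The TBI and sham libraries of a tissue were compared by limma on log2(FPKM + 0.5), over all rows with a mean of at least 1 FPKM, with Benjamini-Hochberg adjustment over all of them. That minimum kept 25 of the 53 genes in CA1 and 33 of the 52 in WBC. In CA1, Il10ra (1.03) and Il12rb2 (1.20) passed it narrowly, and Cish (0.993), Il17rc (0.897) and Stat5a (0.892) missed it. In WBC the nearest were Il9r inside (1.04) and Il20rb outside (0.709). A difference is given as log2, TBI minus sham, with its standard error (SE), on that scale, which understates the change of low genes.

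In CA1 none of the 25 genes passed a limma adjusted p of 0.05, as against 1 of 14637 rows tested (0.00683%), and adjusted p ran from 0.891 to 0.993. At an unadjusted p under 0.05 stood 2 of 25 (8%), Il3ra higher and Stat6 lower, beside 5.14% of all rows (2.54% higher and 2.6% lower). The same 2 were the genes whose sham and TBI libraries did not overlap, beside 2.88% of all rows (1.28% higher and 1.6% lower). In all, 11 genes had a higher and 14 a lower TBI value, while 46.7% of all rows were higher. The median difference was -0.01, the same as over all rows (-0.01).

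In WBC none of the 33 genes passed a limma adjusted p of 0.05, nor did any of the 13413 rows tested (0%), and adjusted p ran from 0.132 to 0.974. At an unadjusted p under 0.05 stood 4 of 33 (12.1%), Socs3 and Il2ra higher and Stat6 and Il3ra lower, beside 20.3% of all rows (7.82% higher and 12.5% lower), so the group's share lay below the background. The groups did not overlap for Socs3 and Stat6 (6.06%), beside 14.2% of all rows (5.61% higher and 8.63% lower). The sign was higher in TBI for 22 genes and lower for 11, while 49.6% of all rows were higher. The median was 0.09 beside -0.003 over all rows. Under quantile normalization the count became 10 of 33, 8 higher and 2 lower, beside 20.1% of all rows, still with none past an adjusted p of 0.05. The genes added were mostly those of high level: Il21r at 0.38, Il4ra at 0.36, Il2rg at 0.34, Il17ra at 0.31, Il6r at 0.28 and Jak1 at 0.21. For Il2rg (-0.03 without it), Jak1 (-0.06) and Stat3 (-0.02, then 0.05) the direction turned, and 25 genes were then higher and 8 lower. The median over all rows also rose under this setting, to 0.049, beside 0.18 for the group. The shares of all rows in each direction were not counted there.

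**Figure D2:**
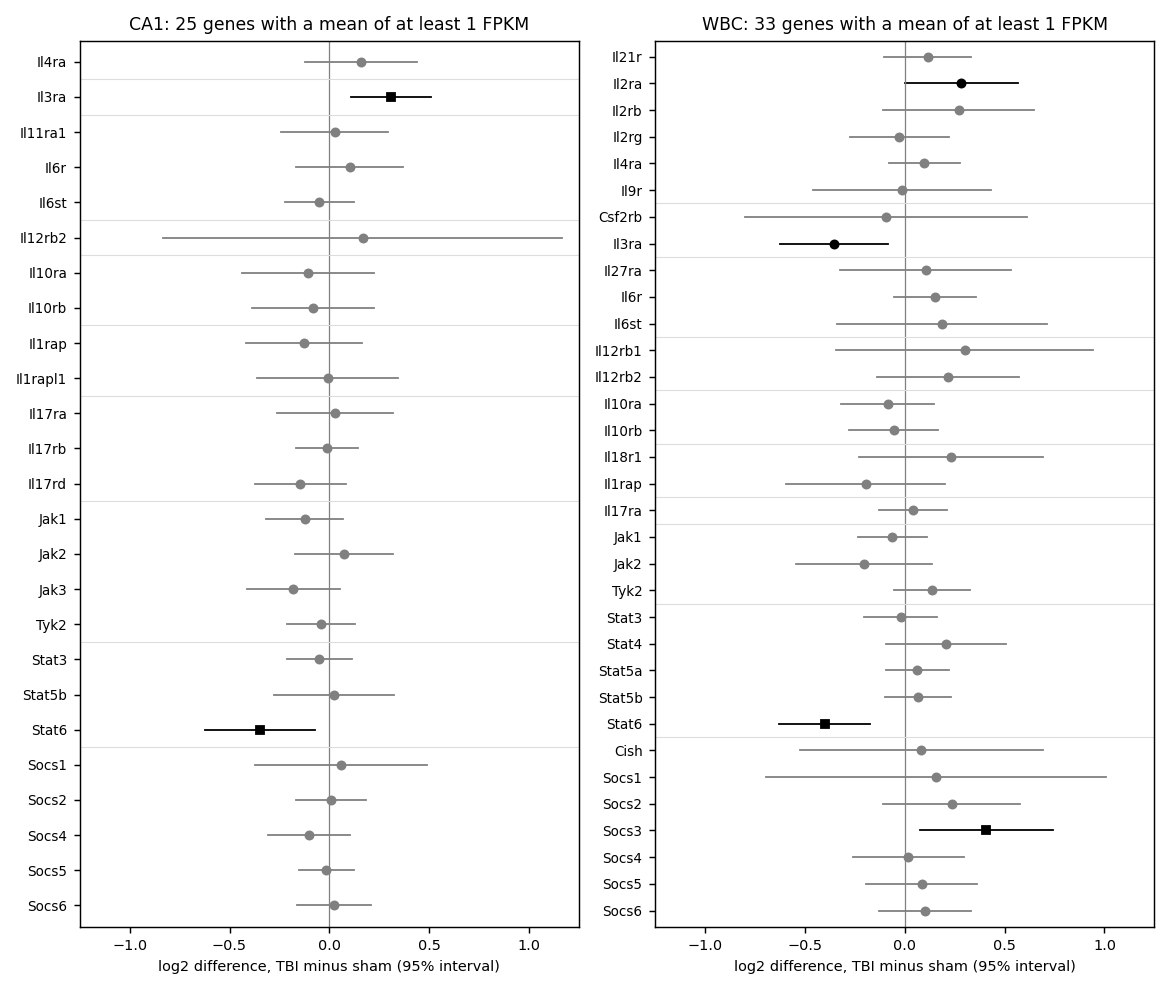
Log2 difference of TBI from sham (points) with its 95% interval (lines) for the 25 genes tested in CA1 and the 33 tested in WBC. In CA1 the intervals of Il3ra and Stat6 leave out 0, and in WBC those of Stat6, Il3ra, Socs3 and Il2ra do, the last of them narrowly. Squares mark genes whose groups do not overlap and black marks an unadjusted p under 0.05.

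In the plot of differences, the interval lay within 0.35 of 0 on both sides for 13 of 25 genes in CA1 and 13 of 33 in WBC. Among those in CA1 were Jak1 (-0.32 to 0.07), Il6st (-0.22 to 0.12), Stat3 (-0.21 to 0.11), Socs5 (-0.15 to 0.12) and Il17rb (-0.16 to 0.14). The interval was widest in CA1 for Il12rb2, from -0.83 to 1.17. In WBC it was widest for Socs1, from -0.69 to 1.01, and Csf2rb, from -0.80 to 0.61. Next in WBC came Il12rb1, from -0.34 to 0.94, and Cish, from -0.53 to 0.69.

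Receptors come first. Il3ra is the alpha chain that gives the IL-3 receptor its specificity and pairs with the common beta chain Csf2rb. In CA1 it was at 2.39, 2.26, 2.17 and 2.28 FPKM in sham 1 to 4 and at 3.26, 2.91, 2.52 and 3.08 in TBI 1 to 4. All TBI libraries lay above all sham libraries, and the sham libraries were tightly grouped. The means were 2.27 ± 0.0905 and 2.94 ± 0.315 FPKM (SD, n = 4 each). The limma difference was 0.31 (SE 0.09, 95% interval 0.11 to 0.51), with an adjusted p of 0.891 (unadjusted 0.00738). Its partner Csf2rb was at 0.299 FPKM in CA1, under the minimum for the test. Beside it in CA1, the summed microglia list was 163 to 185 FPKM in sham and 152 to 204 in TBI. The role of cell makeup in the Il3ra difference was not tested.

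In WBC Il3ra went the other way. It was at 16.1, 19.6, 13.98 and 15.1 FPKM in sham and at 12.3, 14.5, 11.5 and 11.8 in TBI. TBI 2 lay above sham 3, and the other 3 TBI libraries lay below every sham library. The means were 16.2 ± 2.45 and 12.5 ± 1.33 FPKM (SD, n = 4 each), and limma gave -0.35 (SE 0.12, adjusted p 0.163, unadjusted 0.0166). Csf2rb in WBC was at 4.25, 9.19, 4.0005 and 3.31 FPKM in sham and 3.04, 6.30, 4.74 and 4.33 in TBI, with overlapping groups and an interval from -0.80 to 0.61. Sham 2 and TBI 2 were the highest library of their group for both chains. The same libraries had the highest summed neutrophil list, 1098 FPKM in sham 2 and 1248 in TBI 2 (the other 6 ran from 399 to 940). They also had the highest eosinophil and basophil list, 14.6 and 12.0 (the others 4.99 to 11.5). Most of the latter sum was Siglec5 alone (11.4 and 9.34 FPKM), and of the 7 genes found from that list only 2 were tested. Whether these cells bear on the Il3ra difference was not tested.

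The difference between tissues was itself tested for Il3ra. The effect of TBI in WBC minus that in CA1 was -0.66 (SE 0.14, 95% interval -0.97 to -0.36), the only one of 20 genes with an unadjusted p under 0.05 (5%, beside 19.7% of the 7570 symbols in that fit, 7.09% higher and 12.7% lower in WBC than in CA1). Its limma adjusted p was 0.0582, just outside the threshold that 31 symbols (0.41%) passed. It ran from 0.0208 to 0.135 over 25 alternatives, and passed with sample weights (0.0349) and without WBC sham 3 (0.0470), WBC TBI 2 (0.0208) or WBC TBI 3 (0.0402). With equal replicate numbers as a block it was 0.0953. Among the 20 genes, 14 had the same sign in both tissues, a share that was not counted over all symbols.

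The common gamma chain group holds the receptors of lymphocyte growth. Il2ra, the alpha chain that raises the affinity of the IL-2 receptor, was at 5.41, 4.61, 4.97 and 6.04 FPKM in WBC sham and 5.53, 6.20, 6.54 and 7.83 in TBI. TBI 1 lay within the sham range and the other 3 TBI libraries above it. The means of 5.26 ± 0.616 and 6.52 ± 0.964 FPKM (SD, n = 4 each) differed by 0.28 (SE 0.12, limma adjusted p 0.246, unadjusted 0.0499). The unadjusted p was 0.05 or more in 11 of 18 alternatives. The gamma chain Il2rg itself was at 178, 163, 204 and 198 FPKM in sham and 174, 168, 183 and 206 in TBI, with overlapping groups and an interval from -0.27 to 0.22, outside which the quantile-normalized difference of 0.34 lay.

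Il2rb, the beta chain through which IL-2 and IL-15 signal, is abundant on natural killer cells. It was at 33.5, 33.0, 35.6 and 37.5 FPKM in WBC sham and 57.9, 33.0, 35.97 and 45.7 in TBI. TBI 1 and TBI 4 were high and the other 2 TBI libraries lay in the sham range. The difference was 0.27 (SE 0.17, limma adjusted p 0.395). Chains of the receptors for IL-12 and IL-18, which drive interferon gamma in lymphocytes, were also high in these libraries. Il12rb2 was at 1.95, 1.59, 1.59 and 1.54 FPKM in sham and 2.47, 1.68, 1.66 and 2.35 in TBI. Il18r1 was at 4.19 and 5.31 in TBI 1 and TBI 4, with 2.26 to 3.98 elsewhere. Il12rb1 was at 2.62 in TBI 1, and at 1.95 in TBI 4, just under sham 2 (1.97). None of the 3 was called, with limma adjusted p between 0.470 and 0.590. Stat4, which carries the IL-12 signal, was at 32.2 FPKM in TBI 4 and at 24.9 in TBI 1, the latter below TBI 3 (25.4).

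**Figure D3:**
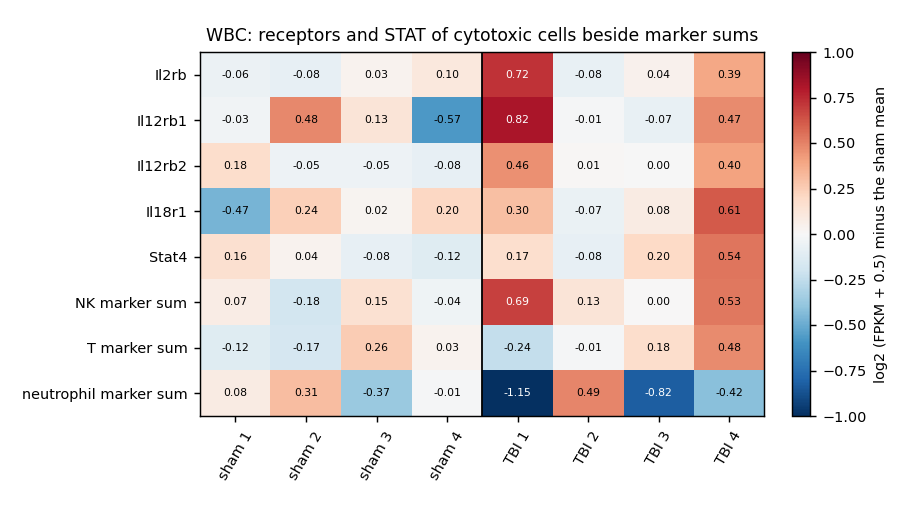
Log2(FPKM + 0.5) in each of the 8 WBC libraries minus the mean of the 4 sham libraries, as colour and number, for Il2rb, Il12rb1, Il12rb2, Il18r1, Stat4 and the summed natural killer (NK), T cell and neutrophil marker lists. TBI 1 and TBI 4 are at 0.72 and 0.39 for Il2rb and at 0.69 and 0.53 for the NK sum, and TBI 1 is at -1.15 for the neutrophil sum.

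The plot of these genes beside the natural killer marker list shows the shared libraries. The summed level of the 7 of 8 markers in the WBC table was 310, 259, 327 and 285 FPKM in sham and 474, 322, 294 and 424 in TBI. TBI 1 and TBI 4 stood above all others, TBI 2 lay inside the sham range and TBI 3 too. All 7 markers were tested and none passed after adjustment. At an unadjusted limma p under 0.05, 4 (Gzmb, Gzma, Prf1 and Ncr1) were higher in TBI, beside 7.82% of all rows. Gzma, Prf1, Ncr1 and Klrd1 were highest in TBI 1 and TBI 4, but the other markers did not follow the sum. Klrk1 in TBI 1 (64.0 FPKM) lay below sham 3 (79.0), and Nkg7 in TBI 4 (84.1) lay below sham 1 (89.6). Gzmb was at 5.04, 4.56, 4.26 and 4.36 in TBI 1 to 4. The T cell list was 776 to 1044 FPKM in sham and 740 to 1215 in TBI, lowest in TBI 1 and highest in TBI 4, and the neutrophil list was lowest in TBI 1 (399). The part of natural killer cell number in the receptor values was not tested.

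The gp130 group serves IL-6, IL-11 and IL-27. Il6st was at 14.3, 18.2, 17.5 and 16.1 FPKM in CA1 sham and 15.7, 15.99, 16.2 and 15.6 in TBI, and the TBI libraries lay within the sham range. Il6r, which binds IL-6, was at 29.7, 30.4, 28.5 and 32.5 FPKM in WBC sham and 32.0, 30.1, 34.2 and 38.7 in TBI, with 2 TBI libraries above all sham ones and an interval from -0.06 to 0.36. Of the IL-10 group, Il10rb in CA1 was at 2.08, 2.71, 3.23 and 2.90 FPKM in sham and 2.68, 2.95, 2.42 and 2.12 in TBI. Il10ra in WBC was at 20.7, 26.4, 24.0 and 25.6 in sham and 21.5, 24.6, 24.3 and 20.4 in TBI. Both overlapped.

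The other leading receptors showed no separation either. Il4ra, shared by the receptors of IL-4 and IL-13, was at 3.40, 3.12, 3.89 and 4.67 FPKM in CA1 sham and 4.29, 3.64, 4.34 and 4.68 in TBI. Il1rap was at 22.3, 20.6, 17.5 and 20.9 FPKM in CA1 sham and 22.3, 15.02, 20.4 and 17.02 in TBI, and at 6.20, 6.76, 3.95 and 5.44 in WBC sham and 3.76, 5.33, 4.65 and 5.33 in TBI. Of the IL-17 receptors, Il17rb in CA1 was at 11.7, 13.0, 12.3 and 13.8 in sham and 11.8, 12.3, 13.3 and 13.1 in TBI. Il17ra, the chain that all IL-17 receptors share, was at 85.9, 90.2, 85.1 and 79.6 FPKM in WBC sham and 91.0, 91.4, 87.7 and 80.7 in TBI, with an interval from -0.13 to 0.21.

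Il12rb2 varied widely within groups in CA1. It was at 0.370, 1.74, 0.814 and 1.35 FPKM in sham and 0.239, 2.13, 1.84 and 1.15 in TBI. Libraries numbered 1 were lowest in both groups. In CA1 the summed choroid plexus list also varied widely, from 18.4 to 1309 FPKM in sham and from 179 to 2735 in TBI, with its lowest value in sham 1 and its highest in TBI 1. Among genes under the minimum, only Il1rl2, the receptor of IL-36, had groups that did not overlap, in both tissues and at levels near 0. In CA1 it was at 0.0240, 0.0288, 0.0152 and 0 FPKM in sham and 0.0412, 0.113, 0.0579 and 0.0842 in TBI. In WBC it was listed at 0 in the 4 sham libraries and at 0.0441, 0.0337, 0.0380 and 0.0330 in TBI. With no minimum its unadjusted limma p was under 0.05 in both tissues, beside 5.47% of all rows in CA1 and 16.4% in WBC. The share without overlap was counted only over rows that passed the minimum (2.88% in CA1 and 14.2% in WBC). Relative depth in WBC was estimated at 1.17 to 1.37 in TBI 2 to 4 and at 0.801 to 1.11 in sham 2 to 4. The part of depth in these values near 0 was not tested. Il13ra1, the second chain of the IL-13 receptor, was under the minimum for a test in both tissues. It was at 0.177, 0.139, 0.139 and 0.0879 FPKM in CA1 sham and 0.0808, 0.156, 0.226 and 0.167 in TBI. In WBC it was at 0.149, 0.515, 0.239 and 0.261 in sham and 0.0641, 0.218, 0.225 and 0.231 in TBI, highest in sham 2.

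The kinases come next. Jak1 serves the receptors of the common gamma chain and gp130 groups, among others. It was at 43.0, 51.6, 48.2 and 41.0 FPKM in CA1 sham and 38.3, 42.6, 45.0 and 42.2 in TBI, and at 117, 108, 117 and 119 in WBC sham and 101, 112, 114 and 115 in TBI. The groups overlapped in both tissues, and the WBC difference of -0.06 was 0.21 under quantile normalization. Jak3, the partner of the gamma chain, was lower in 3 of 4 CA1 TBI libraries than in any sham library (1.75, 1.43, 1.38 and 1.47 against 2.01, 1.83, 1.64 and 1.62 FPKM), with a difference of -0.18 and a limma adjusted p of 0.891. Tyk2, which serves IL-12 and IL-10, was higher in WBC TBI by 0.14 (interval -0.05 to 0.33).

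Among the transducers, Stat6, which carries the signals of IL-4 and IL-13, was lower in TBI in both tissues. In CA1 it was at 3.36, 4.98, 4.40 and 3.52 FPKM in sham and at 3.21, 2.79, 3.12 and 3.09 in TBI. The groups did not overlap, though sham 1 and sham 4 lay close to the TBI libraries. The means were 4.06 ± 0.760 and 3.05 ± 0.180 FPKM (SD, n = 4 each), a difference of -0.35 (SE 0.12, limma adjusted p 0.891, unadjusted 0.0186). Without sham 3 the unadjusted p was 0.0513. Beside this, the endothelial marker list in CA1 had 4 of 7 genes lower at an unadjusted limma p under 0.05, against 2.6% of all rows. Groups did not overlap for the same 4 (Slco1c1, Flt1, Kdr and Tek), against 1.6% of all rows lower, and none passed after adjustment. By the same unadjusted p, 2 of 6 interneuron, 1 of 7 pyramidal neuron and 1 of 7 astrocyte genes were also lower. In the other direction, 1 of 8 microglia and 1 of 3 erythroid genes were higher. The part of these cells in the Stat6 value was not tested.

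In WBC Stat6 was at 60.9, 74.2, 70.1 and 69.9 FPKM in sham and at 44.8, 58.0, 53.6 and 51.9 in TBI. Every TBI library lay below every sham library. The means were 68.8 ± 5.63 and 52.1 ± 5.49 FPKM (SD, n = 4 each). The difference was -0.40 (SE 0.10, 95% interval -0.63 to -0.17), with a limma adjusted p of 0.132 (unadjusted 0.00353), the smallest of the 33 genes. It was -0.20 under quantile normalization, where the unadjusted p was 0.0400. The test of the difference between tissues gave -0.05 (interval -0.38 to 0.27). With quantile normalization it was 0.15. In the same libraries the summed erythroid list was 10167 to 16523 FPKM in sham and 4298 to 10491 in TBI, and the platelet list 7175 to 9822 and 2281 to 6730, while the B cell list was 762 to 996 and 485 to 907. The part of these cells in the Stat6 difference was not tested.

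**Figure D4:**
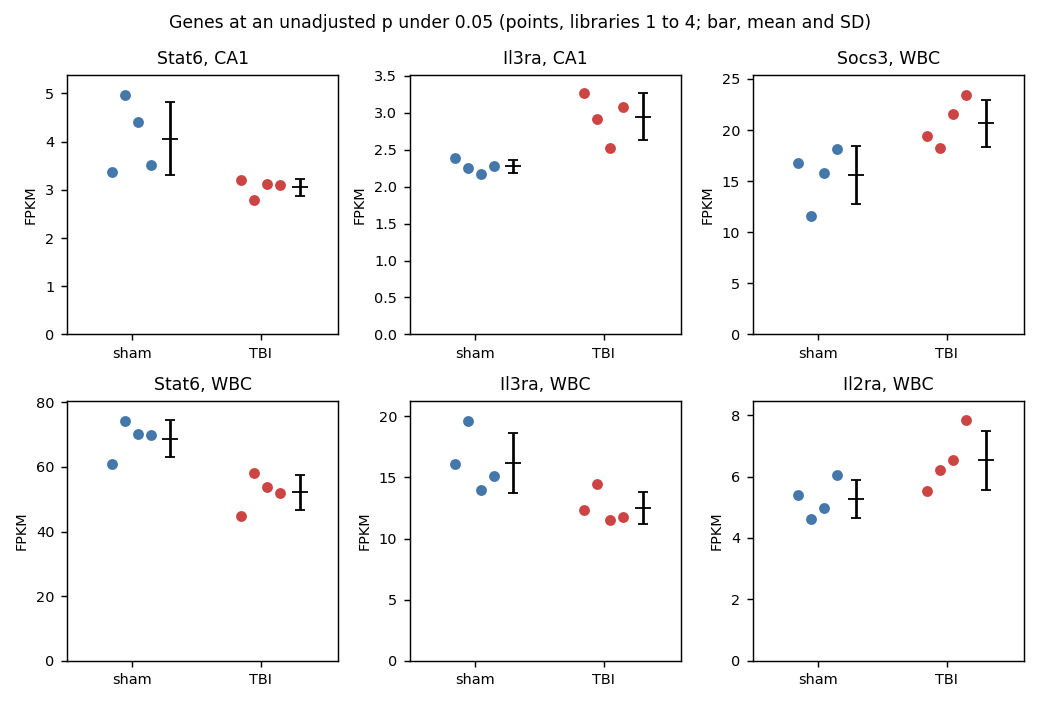
FPKM of the genes with an unadjusted p under 0.05 in CA1 or WBC, one point per library in the order 1 to 4, with mean and SD bars beside each group. Sham and TBI points do not overlap for Stat6 and Il3ra in CA1 and for Stat6 and Socs3 in WBC, while Il3ra and Il2ra in WBC overlap.

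Of the other transducers, Stat4 had the widest gap in WBC, a difference of 0.21 (interval -0.09 to 0.51, limma adjusted p 0.411) with 3 of 4 TBI libraries above every sham library. Stat3, the transducer of IL-6 and IL-10, was at 10.3, 11.8, 10.6 and 10.8 FPKM in CA1 sham and 9.67, 11.3, 11.0 and 9.93 in TBI, and the interval of its difference in WBC was -0.20 to 0.16. Stat5a and Stat5b, which carry IL-2 and IL-3 signals, differed by 0.06 and 0.07 in WBC, with upper bounds of 0.22 and 0.23.

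The inhibitors close the loop. Socs3, which binds gp130 and JAKs, was at 16.8, 11.6, 15.8 and 18.18 FPKM in WBC sham and at 19.4, 18.20, 21.6 and 23.4 in TBI. The groups did not overlap, but sham 4 and TBI 2 were all but equal, and sham 2 was far below the other sham libraries. The means were 15.6 ± 2.86 and 20.7 ± 2.30 FPKM (SD, n = 4 each). The difference was 0.41 (SE 0.14, 95% interval 0.08 to 0.74, limma adjusted p 0.178, unadjusted 0.0216). It was 0.28 without sham 2, and the unadjusted p was 0.0517 without TBI 3 and 0.0592 without TBI 4. In CA1 Socs3 was under the minimum, at 0.350 to 0.540 FPKM in the 8 libraries.

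All 7 inhibitor genes had a positive difference in WBC, where 49.6% of all rows did. It ran from 0.02 for Socs4 to 0.41 for Socs3 with a median of 0.10, and only Socs3 had an unadjusted p under 0.05. Without sham 2 the differences of Socs1 and Cish were -0.21 and -0.11, without TBI 4 that of Cish was -0.07, and that of Socs4 was -0.07 without sham 1 and -0.01 without TBI 2. Socs1 in WBC was at 13.9, 4.502, 14.8 and 11.8 FPKM in sham and 14.2, 7.39, 11.5 and 14.7 in TBI. Cish was at 6.43, 4.35, 6.76 and 10.4 in sham and 5.25, 6.08, 8.02 and 9.87 in TBI. For both, sham 2 was the lowest of the 8 libraries, as it was for Socs3. Among receptor chains it was the lowest for Il2ra (4.61 FPKM), Il2rb (32.96), Il2rg (163) and Il6st (5.69), and the highest for Csf2rb (9.19). Sham 2 was also the lowest for Socs5 (9.51), close to sham 3 (9.61). It was not the lowest for Socs2 (7.499), Socs6 (3.65) or Socs4, where it was the highest at 6.01.

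**Figure D5:**
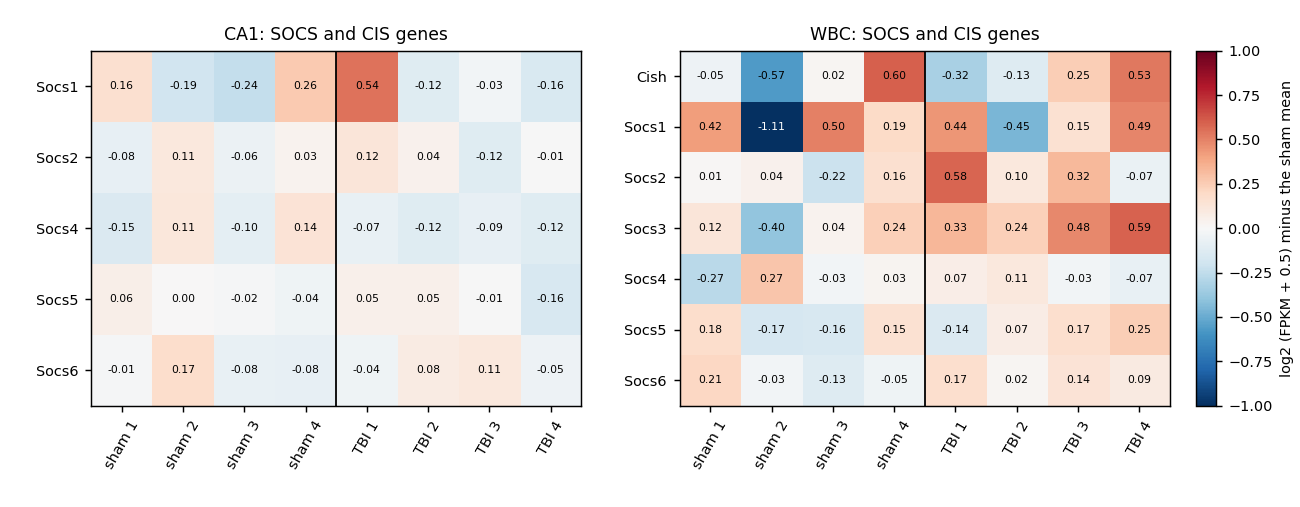
Log2(FPKM + 0.5) of the tested SOCS genes and Cish in each library minus the mean of the 4 sham libraries, for CA1 (left) and WBC (right). In WBC the sham 2 column is at -1.11 for Socs1, -0.57 for Cish and -0.40 for Socs3, and the Socs3 row is above 0 in all 4 TBI libraries.

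In CA1 the inhibitors stayed close to sham, as the plot of inhibitor values against the sham mean shows. Socs5, the most abundant, was at 26.0, 25.1, 24.7 and 24.2 FPKM in sham and 25.9, 25.9, 24.9 and 22.3 in TBI, and 3 of the 5 tested had a positive and 2 a negative difference, from -0.10 to 0.06. Socs1 stood out in TBI 1 at 2.44 FPKM, with 1.22 to 1.93 in the other 7 libraries.

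Other genes of the pathway, in lists of ligands, other cytokine receptors, regulators and targets, were counted for context. None passed after adjustment in either tissue. In CA1 the count at an unadjusted p under 0.05 was 0 of 5 ligands tested, 1 of 7 other receptors, 0 of 16 regulators and 0 of 21 targets, or 1 of 49 (2.04%) beside 5.14% of all rows. The receptor was Ifngr1, the interferon gamma receptor chain, at 23.1, 26.6, 23.8 and 27.1 FPKM in sham and 28.1, 28.1, 28.5 and 31.1 in TBI, without overlap. Next by p came the TNF receptor Tnfrsf1a (5.85 ± 0.245 to 5.24 ± 0.335) and the astrocyte filament gene Gfap (343 ± 50.7 to 293 ± 22.1, SD, n = 4).

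In WBC the counts were 1 higher of 4 ligands, 2 lower of 6 other receptors, 2 higher and 3 lower of 18 regulators and 3 higher and 3 lower of 20 targets. Together these are 14 of 48 (29.2%), 12.5% higher and 16.7% lower, beside the 20.3% of all rows given above. Bcl2l1, which encodes the survival protein Bcl-xL and is also abundant in red cell precursors, was at 206, 306, 237 and 195 FPKM in sham and 66.0, 130, 114 and 81.2 in TBI, a difference of -1.29 with a limma adjusted p of 0.127. Every TBI library was below every sham library. Ccnd3, a cyclin, was at 122 ± 9.45 and 95.7 ± 7.22 FPKM, also without overlap. Clcf1, a ligand of the gp130 family, was at 10.04, 12.4, 8.89 and 10.3 FPKM in sham and 14.9, 12.4, 14.2 and 16.7 in TBI, where sham 2 lay just above TBI 2. The erythroid list given beside Stat6 was lower in the same TBI libraries, with 7 of its 8 genes at an unadjusted p under 0.05, and its part in the Bcl2l1 value was not tested.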

How the data were processed

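Per the submitters' processing notes, reads were handled with TopHat, TopHat2, Bowtie, Bowtie2, Cufflinks and Cuffdiff on the rat build rn5; no versions and no normalization setting were at hand. The deposited values are FPKM, in one table per tissue, with a status per value; all values of the group's genes had the status OK. FPKM gives no counts, so depth is unknown. From the spacing of the smallest values, depth relative to sham 1 could be read in 5 CA1 libraries (0.852 to 0.994) and 6 WBC libraries. In WBC it was 0.801, 1.01 and 1.11 in sham 2 to 4 and 1.34, 1.17 and 1.37 in TBI 2 to 4. The reading was unclear for CA1 sham 2, CA1 TBI 2 and WBC TBI 1 (1.78). By this estimate WBC TBI 2 to 4 were deeper than every WBC sham library. The part of depth in the differences was not tested. Libraries of CA1 correlated at 0.968 to 0.981 and those of WBC at 0.910 to 0.968.

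A symbol with several rows was represented by its most abundant one. Rows with a mean of at least 1 FPKM and every status OK were tested (14637 in CA1, 13413 in WBC) on log2(FPKM + 0.5) with limma 3.58.1 (R 4.3.3; lmFit, eBayes with trend, 2-sided), and the effects of the tissues were compared by an interaction term over 7570 symbols, all adjusted by Benjamini-Hochberg and called under 0.05. On simulated data with 200 rows changed, 28, 36, 84 and 96% of log2 changes of 0.3, 0.5, 1 and 2 were recovered in CA1 (7 false calls) and 4, 14, 64 and 86% in WBC (2 false calls).

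The genes, the gene lists and the tests were chosen with earlier results of these data known. Genes given with values in every library are those with an unadjusted p under 0.05, those whose groups do not overlap and the highest of each role in each tissue; for other pathway genes, the 3 with the smallest p per tissue. Others named, such as Il2rb, Il12rb1, Il18r1, Csf2rb, Jak3, Socs1 and Cish, were chosen after their values were seen. Alternatives were pseudocounts of 0.1 and 1, quantile normalization and median-ratio scaling, no minimum and one of 5 FPKM, limma with robust variances, with sample weights or with no trend, replicate numbers as a block, 0.1 as the adjusted threshold, and the omission of each library in turn.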

Additional observations from a re-analysis of the deposited data

Results flagged for a closer look

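In 116 groups of 4 libraries examined, 7 had 1 library far from the other 3, and chance flags about 1 in 20. Jak2 was at 6.996 FPKM in CA1 TBI 1, with 8.80 to 9.01 in the other TBI libraries. In WBC it was at 26.9 in sham 3 (others 31.4 to 32.0) and at 19.1 in TBI 1 (others 28.1 to 30.2). Il12rb2 was at 1.95 in WBC sham 1 (others 1.54 to 1.59). Il4ra was at 99.8 in WBC TBI 4 (others 89.3 to 90.9). In WBC sham 2, Jak1 was at 108 (others 117 to 119) and Tyk2 at 18.8 (others 15.7 to 15.98).

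The WBC row shared by Insl3 and Jak3 was not used in the comparisons, because its FPKM cannot be split between the genes. It was at 41.4, 39.5, 43.1 and 37.2 FPKM in sham and 52.4, 45.3, 48.3 and 57.9 in TBI. Every TBI library lay above every sham library, with means of 40.3 ± 2.54 and 51.0 ± 5.45 (SD, n = 4) and a limma difference of 0.33 (SE 0.09, adjusted p 0.142).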

How the results depend on the processing

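The number of rows past an adjusted p of 0.05 in CA1 (1) was 2 with quantile normalization, 3 without the trend, 3 with sample weights, 3 at an adjusted p of 0.1, and 1 to 2 when each library was left out (2 without sham 1, sham 2, TBI 1 or TBI 3). In WBC (0) it was 1 at an adjusted p of 0.1 and 0 to 4 without a library: 4 without TBI 2 and 1 without sham 2. For the difference between tissues (31) it was 13 without a minimum, 20 at a minimum of 5 FPKM, 281 with sample weights, 3 with the replicate block, 329 at an adjusted p of 0.1, and 6 to 221 without a library, moving by over 1.5 times for all but CA1 sham 1 (44) and WBC sham 3 (22). With quantile normalization 3 of the group's genes, 2 higher and 1 lower, had an unadjusted p under 0.05 there. The group's genes at an unadjusted p under 0.05 in CA1 (2) numbered 0 at a minimum of 5 FPKM and 1 to 3 without a library (1 without sham 3). In WBC (4) they numbered 10 with quantile normalization and 2 to 5 without a library (2 without TBI 3). The causes were not tested. None of the differences named for an unadjusted p under 0.05 changed direction. Within a tissue those of other genes did, 3 of 33 in WBC with quantile normalization and 1 to 5 per library left out. With sample weights 2 of 25 in CA1 and 2 of 33 in WBC did. Within a tissue, sham and TBI libraries of equal number did not all correlate (0.02 to 0.24 in CA1, -0.008 to 0.15 in WBC), so they were not treated as pairs. The block left the counts of 2 and 4 as they were. Across tissues, each CA1 library correlated best with the WBC library of its own number and group (0.05 to 0.20). The labels do not say whether these share a rat. The main comparison of tissues took all 16 libraries as separate, and the block lowered its count from 31 to 3. FPKM without counts limits what can be said of genes near 0.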

Other observations

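The CA1 table held a second row for Il10rb, with a mean of 2.05 FPKM beside 2.64 for the row used, and for Il17rb, with 0.146 beside 12.7. The row that Csf2ra shares with another locus was at 2.72 ± 0.0929 FPKM in CA1 sham and 3.03 ± 0.162 in TBI, and at 30.5 ± 6.80 and 28.9 ± 3.12 in WBC (SD, n = 4).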
